A study of Homo sapiens with 12 samples.

Results

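The gene module described here holds 40 interferon-induced and antigen presentation genes, chosen by name for their known part in the interferon response. All 40 were found by their Ensembl identifiers among the 12584 genes of the count table analysed. They fall into 7 roles, which are antigen presentation and checkpoint genes (3), transcription factors and nuclear regulators (6), RNA sensors and RNA enzymes (8), IFIT and antiviral effector genes (12), guanylate binding proteins (3), enzymes of the ubiquitin, ISG15 and ADP-ribose pathways (6), and a pair of genes for a secreted glycoprotein and a peptidase.

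The genes were measured by RNA-seq in 2 human lung adenocarcinoma lines, A549 and PC9. Each line had been infected with a lentiviral vector that carried HOXC6 (A549-HOXC6 and PC9-HOXC6) or with the vector alone (NEO, giving A549-NEO and PC9-NEO), and each of the 4 groups had 3 libraries. HOXC6 is a homeobox transcription factor, and the study asked which genes change when it is overexpressed in these cells. Cells of both arms had taken up a lentivirus and were stably infected after drug selection, so no group was untreated, and the labels name no interferon treatment. Over the genes of the table the libraries totalled 1212053 to 3286577 counts, and 3 counts, taken as the floor of detection, equalled 0.913 to 2.48 CPM, which are counts scaled to a common library size. HOXC6 itself was not analysed here, so the vector labels were not checked on its level.

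Interferons are secreted when a cell senses foreign or misplaced nucleic acid. They bind receptors whose JAK kinases phosphorylate STAT proteins, and STAT complexes together with IRF factors then switch on the interferon-stimulated genes. Type I and type III interferons act mainly through the interferon-stimulated response element (ISRE), and interferon gamma through the gamma-activated site (GAS), IRF1 and the antigen presentation genes. Epithelial cells keep part of this set on at a low level without added interferon.

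The upstream sequences of 5 members are shown because these members carry the main differences below: BST2 separated the lines, HERC5, DDX60 and IFI6 passed both thresholds under HOXC6, and B2M changed with the vector in PC9. Each is the 250 bases before the RefSeq transcription start (GRCh38.p14), written 5′ to 3′ in the direction of transcription, and the capitals mark every match to the ISRE core on either strand, which was searched as GAAA, any 2 bases (NN) and GAAA again, overlapping matches being joined. The windows lie at chr19:17405631-17405880 on the reverse strand (BST2), chr4:88456869-88457118 on the forward strand (HERC5), chr4:168318753-168319002 on the reverse strand (DDX60), chr1:27672193-27672442 on the reverse strand (IFI6) and chr15:44711267-44711516 on the forward strand (B2M).
BST2: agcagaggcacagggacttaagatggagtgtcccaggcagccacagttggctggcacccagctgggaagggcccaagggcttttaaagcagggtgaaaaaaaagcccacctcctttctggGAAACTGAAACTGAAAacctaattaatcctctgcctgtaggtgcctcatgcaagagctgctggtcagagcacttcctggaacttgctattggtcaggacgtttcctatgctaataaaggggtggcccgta
HERC5: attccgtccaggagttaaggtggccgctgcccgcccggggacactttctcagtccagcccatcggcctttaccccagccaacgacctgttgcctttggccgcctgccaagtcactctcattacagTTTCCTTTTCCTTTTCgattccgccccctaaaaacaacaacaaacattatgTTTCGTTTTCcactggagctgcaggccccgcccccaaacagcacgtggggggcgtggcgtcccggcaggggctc
DDX60: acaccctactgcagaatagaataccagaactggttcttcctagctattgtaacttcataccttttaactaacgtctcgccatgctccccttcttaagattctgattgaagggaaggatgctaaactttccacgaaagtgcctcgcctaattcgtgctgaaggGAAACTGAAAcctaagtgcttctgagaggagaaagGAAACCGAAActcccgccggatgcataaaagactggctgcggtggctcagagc
IFI6: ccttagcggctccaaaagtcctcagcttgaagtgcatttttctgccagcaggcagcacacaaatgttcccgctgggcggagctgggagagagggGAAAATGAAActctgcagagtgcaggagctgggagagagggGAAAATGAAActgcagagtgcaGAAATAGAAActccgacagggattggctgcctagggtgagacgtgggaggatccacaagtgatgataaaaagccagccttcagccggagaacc
B2M: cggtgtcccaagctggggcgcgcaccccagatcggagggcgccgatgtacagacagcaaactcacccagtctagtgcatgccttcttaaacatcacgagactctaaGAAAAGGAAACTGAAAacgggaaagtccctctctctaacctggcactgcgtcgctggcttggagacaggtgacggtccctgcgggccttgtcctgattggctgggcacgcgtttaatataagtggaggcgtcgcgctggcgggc

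In BST2 and B2M the match was a single stretch, which began 130 and 144 bases before the start. HERC5 and DDX60 held 2 stretches each, at 125 and 74 bases and at 88 and 53 bases before the start, and those of HERC5 read as the reverse complement. IFI6 held 3, at 156, 115 and 93 bases. Of the 35 members with a RefSeq entry, 21 (60%) held the ISRE core in a window of this length, against 1014 of 27305 genes (3.71%). The GAS core TTCNNNGAA, also searched on both strands, was found in 10 of the 35 (28.6%) against 8.09% of all genes. BST2, DDX60, MX1, CD274 and IFI27 held both in the same window, and TAP1 held them in windows of different starts. These matches describe the sequence only. The windows of PARP9 and DTX3L, which are transcribed in opposite directions from neighbouring starts, shared 37 bases. GBP2, IFIT2, OAS2, OASL and TRIM22 had no entry.

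Much of the module was at or near the floor in these cells. RSAD2, the antiviral enzyme viperin, and XAF1, a proapoptotic interferon target, had 0 counts in all 12 libraries, and OAS2 and CMPK2 never exceeded 3 counts. Members with no library above the floor numbered 8 in A549-NEO, 10 in A549-HOXC6, 8 in PC9-NEO and 9 in PC9-HOXC6, and 26 of the 40 were above it in all 4 groups. Some of the antiviral effectors were low: IFI44L reached at most 2.54 CPM, IFI44 3.23 CPM, IFI27 4.33 CPM and IFIT3 4.33 CPM in any library, although IFIT3 was above the floor in each group. Others of this role, BST2, MX1 and IFI6, were higher than that in every PC9 library, with values given below. The interferon-induced genes ISG15, IFIT1, IFITM1 and MX2 were not in the table analysed. Per length of annotated exon (RPKM) the highest means in A549-NEO were those of LGALS3BP (94.2), B2M (77.0), UBE2L6 (41.0), ADAR (26.2) and TAP1 (25.2). In PC9-NEO they were LGALS3BP (329), BST2 (180.2), B2M (82.0), UBE2L6 (44.5) and ADAR (25.2). Secreted LGALS3BP, the class I light chain B2M and the ISG15-conjugating enzyme UBE2L6 thus stood in the highest 4 of the module by RPKM in both lines, whereas the membrane protein BST2 did so in PC9 but not in A549. The length used is the union of all annotated exons, 2062 bp for UBE2L6 and 12265 bp for IRF1, and the ranks depend on it.

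The summed level of the 40 members was 1751 to 1791 CPM in the A549-NEO libraries, 1756 to 1883 CPM in A549-HOXC6, 2588 to 2770 CPM in PC9-NEO and 3056 to 3198 CPM in PC9-HOXC6. Without B2M and LGALS3BP the sums were 1190 to 1230, 1119 to 1196, 1267 to 1348 and 1416 to 1470 CPM. The A549-HOXC6 libraries therefore overlapped A549-NEO in the full sum and reached just above the lowest A549-NEO library without those genes, while the PC9-HOXC6 libraries lay above every PC9-NEO library in both sums.

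**Figure D1:**
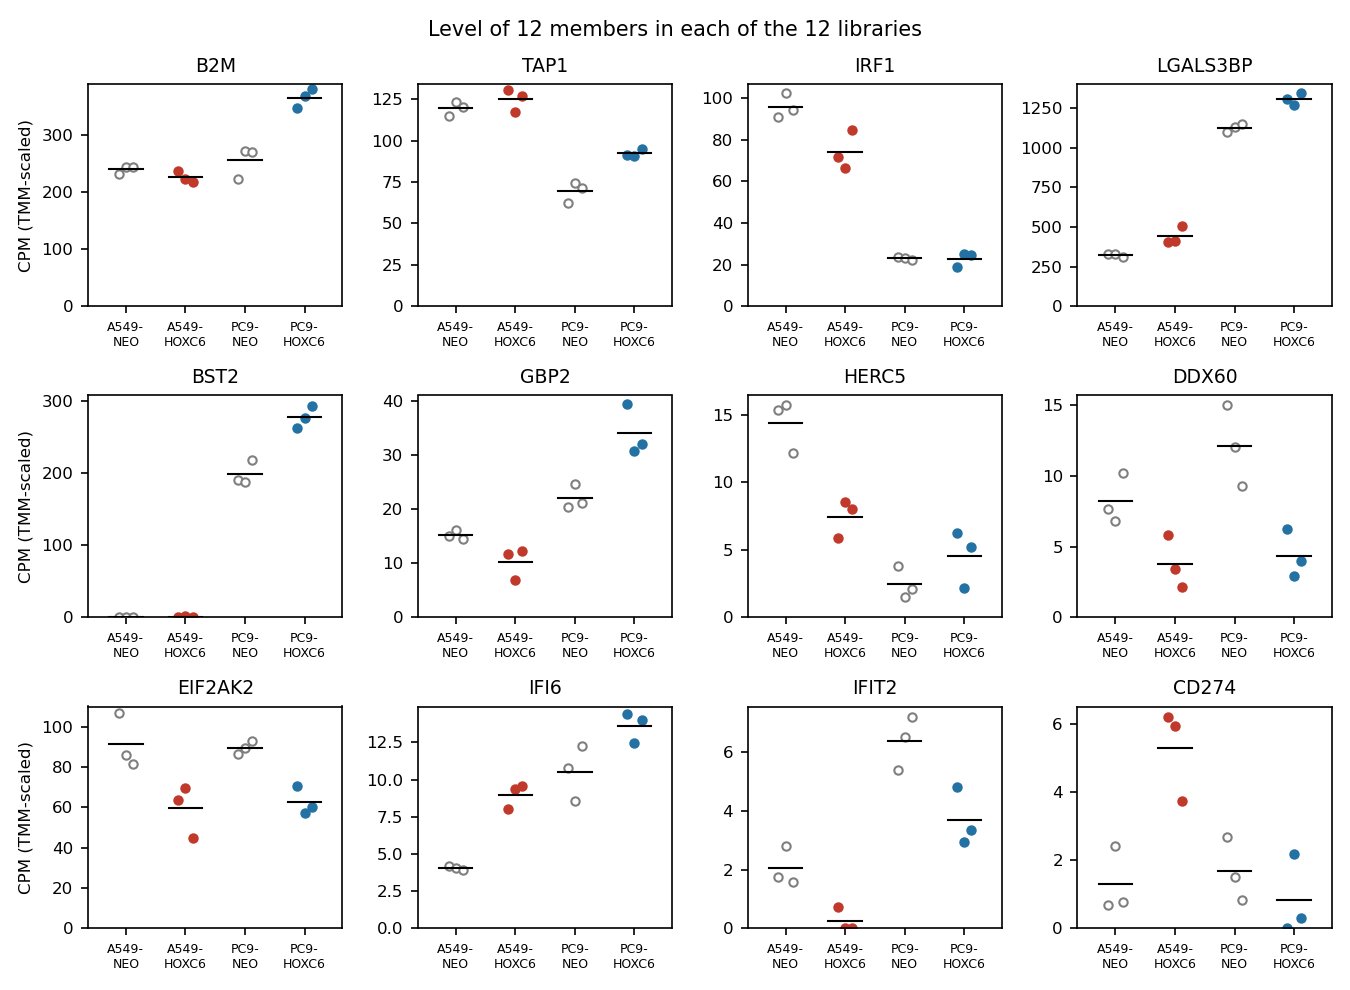
Level of 12 members in each of the 12 libraries, in TMM-scaled CPM on axes that start at 0. Points are libraries (open for NEO, filled for HOXC6) and bars are means over 3 libraries. BST2 lies between 0 and 1.70 CPM in all 6 A549 libraries and between 187 and 293 CPM in all 6 PC9 libraries, and DDX60 is lower with HOXC6 in both lines.

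The epithelial identity of the cells was checked on a list of markers. The 4 epithelial markers in the table were above the floor in every group. Their summed level was 7816 to 8051 CPM in A549-NEO, 9269 to 11575 CPM in A549-HOXC6, 10831 to 11660 CPM in PC9-NEO and 10663 to 10962 CPM in PC9-HOXC6, so in A549 it was higher with HOXC6 without overlap. In that comparison KRT18 was at 0.58 (edgeR adjusted p = 8.93e-07) and KRT7 at 0.29 (edgeR adjusted p = 0.000696). CDH1 was lower at -0.43 (edgeR adjusted p = 0.00305), and EPCAM at -0.19 did not pass the test. With the correction for base composition given below, KRT18 was at 0.24, KRT7 at -0.004 and CDH1 at -0.56. Between the lines EPCAM (-5.03), KRT18 (-2.30) and CDH1 (-1.02) were called lower in A549-NEO. The 4 immune cell markers in the table summed to 17.3 to 23.0 CPM in A549-NEO, 23.0 to 37.8 CPM in A549-HOXC6, 7.53 to 14.6 CPM in PC9-NEO and 12.8 to 18.2 CPM in PC9-HOXC6, and CD68 was at 0.99 in A549 under HOXC6 (edgeR adjusted p = 0.00443). The 6 fibroblast markers summed to 67.6 to 70.1, 54.4 to 77.3, 19.5 to 33.1 and 28.6 to 39.4 CPM, and the 2 endothelial markers to at most 5.33 CPM. A549-HOXC6 replicate 3 was the only A549 library with counts of PTPRC (4), VWF (4) and KDR (6), and of the 6 A549 libraries it alone held more than 3 counts of the oligoadenylate synthetase-like gene OASL (9). The part of these markers in the members' results was not tested.

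The starting state of the module was compared first, between the lines with the empty vector. Per the study's methods A549 was kept in RPMI medium and PC9 in DMEM, so line and medium cannot be told apart here. PC9-NEO held more of the antiviral effectors BST2, MX1, IFIT2 and IFI6, of GBP3, PARP9, DTX3L and LGALS3BP, and A549-NEO held more of the transcription factor IRF1, the ISG15 ligase HERC5 and IFIT5. By edgeR's quasi-likelihood test, with a Benjamini-Hochberg adjusted p under 0.05 and a change beyond 2-fold in either direction, 3 of 27 members tested were higher in A549-NEO and 8 were lower. This was 40.7% of the members against 36% of all 9076 genes tested (19.6% higher and 16.4% lower). At any fold change, 5 were higher and 9 lower (51.9%) against 72.7% of all genes (36.9% higher and 35.7% lower), and the members' median log2 fold change was -0.09 against 0.02 over all genes. The share of members past both thresholds was thus near that of all genes, and at any fold it was below it. Of the 12 antiviral effectors 5 were tested, with 4 lower and 1 higher, and of the 3 guanylate binding proteins 2, with 1 lower. BST2, MX1, IFIT2 and GBP3 were below the filter within A549 and entered this comparison through PC9, where they are high, so their direction was largely set by the filter. HERC5 was below the filter within PC9 and entered through A549, where it is high, so its direction was largely set by the filter too. None of 6 RNA sensors and RNA enzymes and none of 2 antigen presentation genes tested was called by edgeR, with 1 of these, TAP1, past the p threshold alone.

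BST2 (tetherin, ENSG00000130303, chr19:17513748-17516439 of GRCh37), which holds budding virions at the plasma membrane, was the largest difference between the lines in the module. It measured 189.9, 187 and 218 CPM in PC9-NEO and 263, 277 and 293 CPM in PC9-HOXC6. In A549-NEO it measured 0, 0.403 and 0.393 CPM, and in A549-HOXC6 0, 1.70 and 0 CPM. The lines did not overlap: with 1241 counts in PC9-NEO and 2 in A549-NEO the ratio was 789 (95% counting interval 218 to 6519), and between the HOXC6 groups, with 1888 and 2 counts, it was 811 (224 to 6704).

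Of the other antiviral effectors, MX1, a dynamin-like GTPase, measured 2.44, 6.04 and 1.57 CPM in A549-NEO and 11.8, 10.05 and 14.0 CPM in PC9-NEO (log2 fold change -1.82 ± 0.38 SE, edgeR adjusted p = 6.65e-05). IFIT2, which binds RNA, measured 1.74, 2.82 and 1.57 CPM against 5.38, 6.53 and 7.20 CPM (-1.61 ± 0.45, edgeR adjusted p = 0.00174). IFI6, a small membrane protein of mitochondria and the endoplasmic reticulum, measured 4.18, 4.03 and 3.93 CPM against 10.8, 8.54 and 12.3 CPM (-1.34 ± 0.35, edgeR adjusted p = 0.00075). For each of the 3 genes, every A549-NEO library lay below every PC9-NEO library. IFIT5, another RNA-binding member, ran the other way, at 10.1, 12.1 and 9.04 CPM in A549-NEO and 4.30, 4.52 and 5.50 CPM in PC9-NEO (1.13 ± 0.34, edgeR adjusted p = 0.00325), again without overlap. IFI27, which was below the filter on low counts, had 12, 6 and 11 counts in A549-NEO and 0 in every PC9-NEO library, at least 2.49-fold higher in A549-NEO with 3 counts per library as the floor.

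IRF1 (chr5:131776132-131844411), the transcription factor at the start of the interferon gamma response, measured 91.0, 102 and 94.4 CPM in A549-NEO and 23.7, 23.1 and 22.4 CPM in PC9-NEO (2.09 ± 0.14, edgeR adjusted p = 3.05e-16). HERC5 (chr4:89378270-89427314), the main ligase that attaches ISG15 to proteins, measured 15.3, 15.7 and 12.2 CPM against 3.77, 1.51 and 2.12 CPM (2.58 ± 0.38, edgeR adjusted p = 1.44e-07). Both were higher in every A549-NEO library than in any PC9-NEO library. The exons of IRF1 overlap those of antisense genes by 3291 bp, and whether counting used strand is not given in the sources used here, so reads from both strands may be included.

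PARP9 and its partner DTX3L form an ADP-ribosyltransferase and ubiquitin ligase complex and are transcribed from a shared promoter region. PARP9 measured 13.2, 11.3 and 15.3 CPM in A549-NEO and 62.9, 49.7 and 45.3 CPM in PC9-NEO (-1.94 ± 0.19, edgeR adjusted p = 1.81e-11). DTX3L measured 27.5, 20.1 and 33.0 CPM against 52.2, 56.8 and 56.3 CPM (-1.00004 ± 0.16, edgeR adjusted p = 9.96e-07). Both were lower in every A549-NEO library. The value of DTX3L lay at the fold threshold, and its call ended at -0.99 without PC9-NEO replicate 2 or 3, at -0.999 without A549-NEO replicate 1 and at -0.81 without A549-NEO replicate 2. Their annotated exons overlap by 139 bp on opposite strands.

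GBP3, a guanylate binding protein, measured 3.14, 2.01 and 2.75 CPM in A549-NEO and 19.4, 14.1 and 19.5 CPM in PC9-NEO (-2.68 ± 0.34, edgeR adjusted p = 8.88e-09). LGALS3BP, a secreted glycoprotein that binds galectins, measured 329, 329 and 309 CPM against 1098, 1129 and 1151 CPM (-1.77 ± 0.06, edgeR adjusted p = 3.01e-25). Neither gene overlapped between the lines. Members past the p threshold at a smaller fold were TAP1 (0.81), the peptide transporter of the class I pathway, and TRIM25 (0.63), a ubiquitin ligase of RNA sensing, both higher in A549-NEO, and GBP2 (-0.50), lower. B2M differed by -0.06 (edgeR adjusted p = 0.482), the dsRNA-activated kinase EIF2AK2 by 0.06 (0.612) and the RNA editing enzyme ADAR by 0.08 (0.332), without passing the test.

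**Figure D2:**
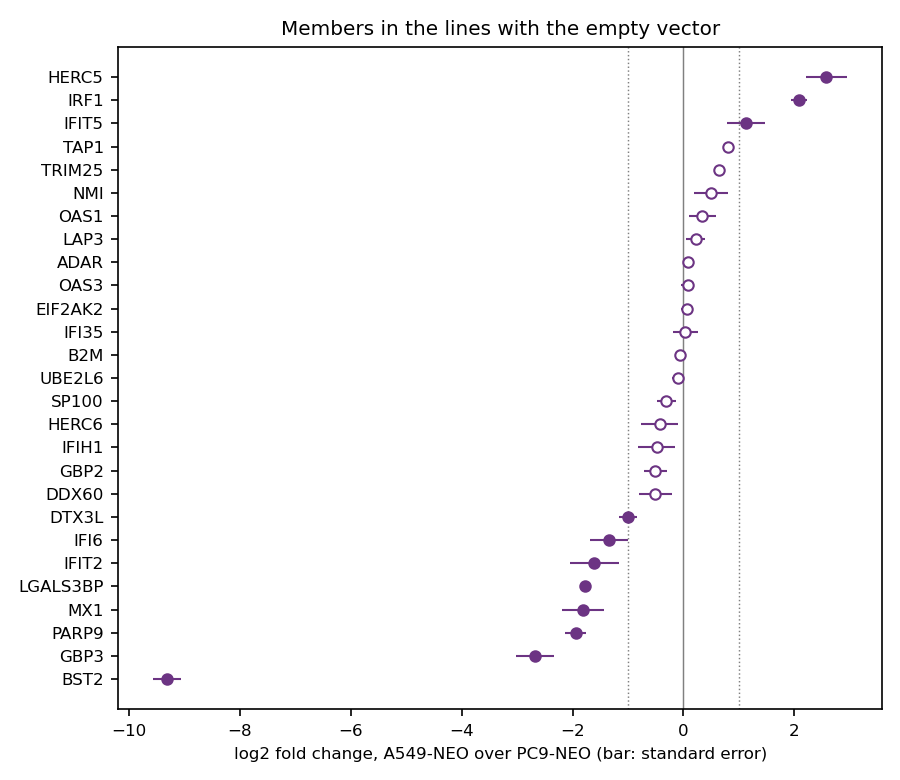
Log2 fold change of the 27 tested members, A549-NEO over PC9-NEO, with its standard error; filled points passed both thresholds and dotted lines mark log2 fold changes of -1 and 1. BST2 lies far from the rest at -9.31, HERC5 (2.58) and IRF1 (2.09) lie at the other end, and 12 members lie above 0 and 15 below.

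HOXC6 in A549 changed few members by 2-fold or more. DDX60, a helicase that promotes RNA sensing, and HERC5 fell, and IFI6 rose. Of 23 members tested, 1 was called higher and 2 lower, 13% in all against 7.21% of the 8771 genes tested, or 1.7% higher and 5.51% lower. At any fold change, 3 were higher (IFI6, the nuclear regulator IFI35 and LGALS3BP) and 6 lower (DDX60, HERC5, the nuclear body protein SP100, EIF2AK2, IRF1 and TRIM25), 39.1% against 39.6% of all genes (18.9% higher and 20.7% lower). The remaining 14 members did not pass the test, and the median over the 23 was -0.12 against -0.00 over all genes.

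DDX60 (chr4:169137442-169240034) measured 7.67, 6.85 and 10.2 CPM in A549-NEO and 5.85, 3.41 and 2.13 CPM in A549-HOXC6 (-1.04 ± 0.41, edgeR adjusted p = 0.0428). HERC5 measured 15.3, 15.7 and 12.2 CPM against 5.85, 8.51 and 7.99 CPM (-1.04 ± 0.30, edgeR adjusted p = 0.00744). IFI6 (chr1:27992575-27998723) measured 4.18, 4.03 and 3.93 CPM against 8.04, 9.36 and 9.59 CPM (1.08 ± 0.37, edgeR adjusted p = 0.0219). None of the 3 overlapped between the vectors, but all were low genes, with 4 to 44 counts per library, and none kept its call with the correction for base composition given below. The call of DDX60 ended without any A549-NEO library or without A549-HOXC6 replicate 2 or 3 (-0.73 to -1.16), that of HERC5 without A549-NEO replicate 1 or 2 or A549-HOXC6 replicate 1 (-0.85 to -0.995), and that of IFI6 without any A549-NEO library or without A549-HOXC6 replicate 3 (1.03 to 1.10).

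EIF2AK2 (PKR), which stops translation on sensing double-stranded RNA, measured 107, 86.2 and 81.4 CPM in A549-NEO and 63.9, 69.8 and 44.8 CPM in A549-HOXC6 (-0.68 ± 0.15, edgeR adjusted p = 0.000692). LGALS3BP measured 329, 329 and 309 CPM against 406, 415 and 509 CPM (0.42 ± 0.09, edgeR adjusted p = 0.000441). Neither overlapped between the vectors. IRF1 measured 91.0, 102 and 94.4 CPM against 71.6, 66.4 and 84.7 CPM (-0.40 ± 0.12, edgeR adjusted p = 0.0106), again without overlap. SP100 fell by 0.86 and TRIM25 by 0.29 on the log2 scale, and IFI35 rose by 0.81.

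The antigen presentation genes did not pass the test in A549. B2M measured 233, 245 and 244 CPM in A549-NEO and 237, 223 and 218 CPM in A549-HOXC6 (-0.12 ± 0.09, edgeR adjusted p = 0.298), and TAP1 differed by 0.04 ± 0.11 (0.815). CD274, which encodes the checkpoint ligand PD-L1, was too low for the filter. It had 2, 6 and 2 counts in A549-NEO (0.697, 2.42 and 0.786 CPM) and 17, 7 and 7 counts in A549-HOXC6 (6.21, 5.96 and 3.73 CPM), without overlap, and with no filter on low counts it was called higher (1.97, edgeR adjusted p = 0.0104). CD274 was singled out after its values had been seen. IFIT2, also below the filter in A549, had 16 counts in A549-NEO and 2 in A549-HOXC6, a ratio of 5.87 (95% counting interval 1.38 to 52.6), and with no filter it did not pass the test (-2.45, edgeR adjusted p = 0.0993).

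HOXC6 in PC9 was accompanied by higher B2M and TAP1, the presentation genes tested, and by higher BST2, UBE2L6, GBP2 and LGALS3BP, all by less than 2-fold. With the correction for base composition given below, TAP1 and UBE2L6 no longer passed and LGALS3BP turned to -0.03. DDX60 and EIF2AK2 were lower. Of 26 members tested, 0 were called higher and 1 lower (DDX60), 3.85% against 4.53% of the 8419 genes tested, or 0.962% higher and 3.56% lower. At any fold change 6 were higher and 2 lower, 30.8% against 27.5% of all genes (13.3% higher and 14.2% lower). No member was called higher by DESeq2 either, and 8 were higher at an unadjusted p under 0.05 by edgeR. The members' median was 0.10 against -0.00 over all genes. The shares were near those of all genes by both rules.

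DDX60 measured 15.1, 12.1 and 9.31 CPM in PC9-NEO and 6.24, 2.93 and 3.96 CPM in PC9-HOXC6 (-1.41 ± 0.36, edgeR adjusted p = 0.00359), without overlap, and its call held without any single library. EIF2AK2 measured 86.6, 89.4 and 93.1 CPM against 70.5, 57.1 and 60.2 CPM (-0.51 ± 0.12, edgeR adjusted p = 0.00136), also without overlap. Both RNA sensors were therefore lower with HOXC6 in each line, before the correction for base composition given below. RNA helicase IFIH1 (MDA5) measured -0.58 on the log2 scale and did not pass the test (edgeR adjusted p = 0.252).

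B2M (chr15:45003556-45011049) measured 224, 273 and 271 CPM in PC9-NEO and 348, 369 and 381 CPM in PC9-HOXC6 (0.52 ± 0.08, edgeR adjusted p = 7.65e-06). TAP1 measured 62.4, 74.3 and 71.1 CPM against 91.2, 90.8 and 94.9 CPM (0.42 ± 0.11, edgeR adjusted p = 0.00544). The groups did not overlap for either gene. BST2, at the values given above, rose by 0.49 ± 0.08 (edgeR adjusted p = 2.96e-05) and the ISG15-conjugating enzyme UBE2L6 by 0.42 ± 0.11 (0.00381). GBP2 measured 20.4, 24.6 and 21.2 CPM against 39.4, 30.8 and 31.9 CPM (0.63 ± 0.19, edgeR adjusted p = 0.0109). LGALS3BP measured 1098, 1129 and 1151 CPM against 1308, 1271 and 1347 CPM (0.22 ± 0.05, edgeR adjusted p = 0.00249), and neither it nor GBP2 overlapped between the vectors.

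The members called between the lines with the empty vector showed no pass in PC9 under HOXC6 for MX1 (11.8, 10.05 and 14.0 CPM against 13.4, 11.0 and 16.4 CPM), IFIT2 (5.38, 6.53 and 7.20 CPM against 4.80, 2.93 and 3.35 CPM) and IFI6 (10.8, 8.54 and 12.3 CPM against 14.4, 12.4 and 14.0 CPM). The same was true of IRF1 (-0.01 ± 0.20), PARP9 (-0.06 ± 0.15), DTX3L (0.04 ± 0.14), GBP3 (-0.36 ± 0.25) and IFIT5 (0.14 ± 0.42). In A549, PARP9 (13.2, 11.3 and 15.3 CPM against 17.5, 13.6 and 18.6 CPM), DTX3L (27.5, 20.1 and 33.0 CPM against 27.4, 27.2 and 21.3 CPM) and IFIT5 (10.1, 12.1 and 9.04 CPM against 9.13, 10.2 and 7.99 CPM) did not pass either. MX1 and GBP3 were below the filter in A549, at 4.02, 4.26 and 3.73 CPM and at 1.10, 4.26 and 2.66 CPM with HOXC6.

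**Figure D3:**
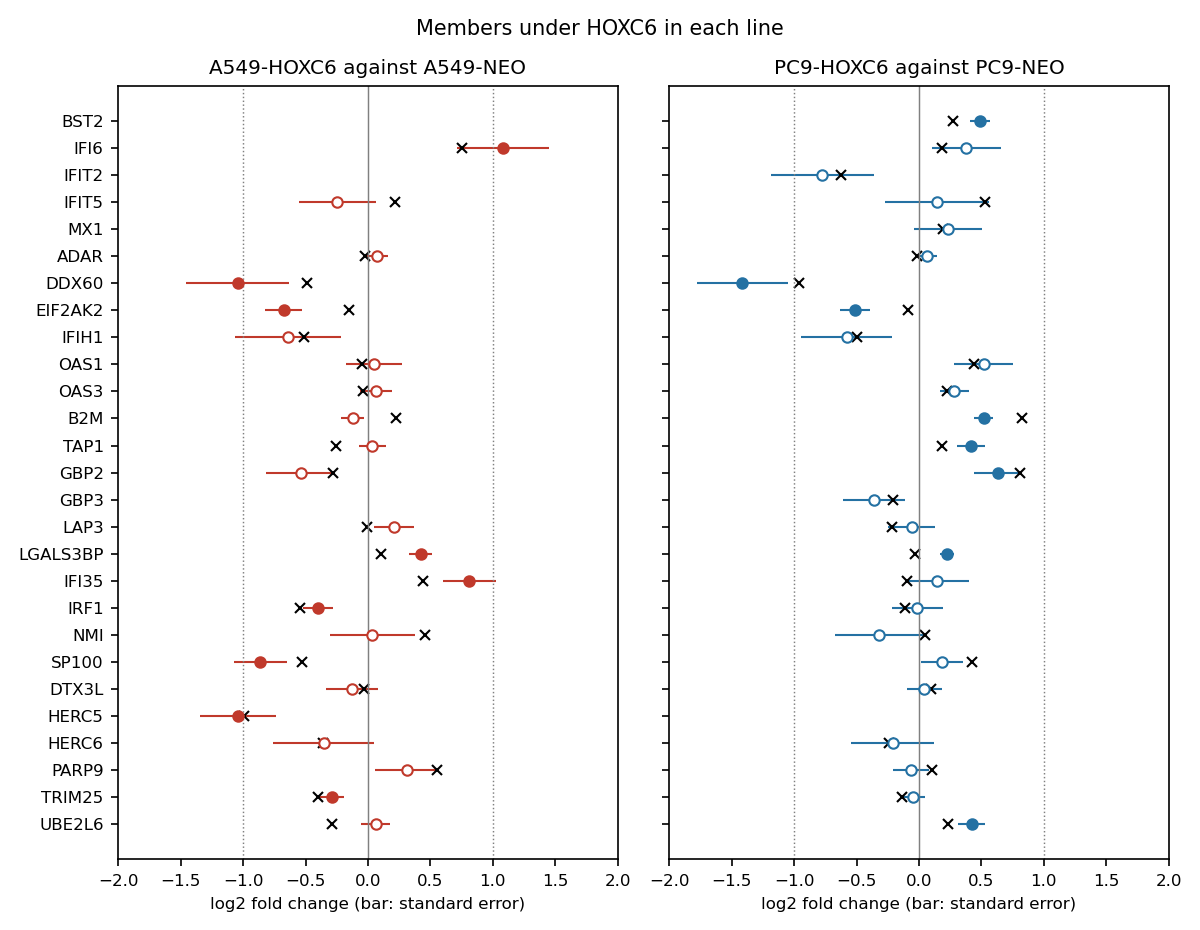
Log2 fold change of HOXC6 over NEO libraries for the members tested in each line, with its standard error; filled points had an adjusted p under 0.05, crosses give the value after correction for GC content and length, and dotted lines mark -1 and 1. Of the members tested in both lines, DDX60 is the only one below -1 in each (-1.04 and -1.41), and B2M lies at -0.12 in A549 and 0.52 in PC9; a member missing from a panel was below the filter there.

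The difference between the lines in the effect of HOXC6 was tested directly over 12 libraries, as the effect in A549 minus the effect in PC9. Of 27 members tested, 0 had a difference called higher and 2 lower, 7.41% against 5.15% of the 9229 genes tested (2.76% higher and 2.38% lower). At any fold 4 members were lower, 14.8% against 8.44% of all genes, and 0 were higher against 10.9%. DESeq2 also called 0 differences higher, and 2 were higher at an unadjusted p under 0.05 by edgeR. HERC5 measured 15.3, 15.7 and 12.2 CPM and then 5.85, 8.51 and 7.99 CPM with HOXC6 in A549, and 3.77, 1.51 and 2.12 CPM and then 6.24, 2.197 and 5.17 CPM in PC9 (difference -1.98 ± 0.59, edgeR adjusted p = 0.0147). GBP2, a GTPase induced by interferon gamma, measured 15.0, 16.1 and 14.5 CPM and then 11.7, 6.81 and 12.3 CPM in A549, and rose in PC9 as given above (difference -1.12 ± 0.32, edgeR adjusted p = 0.0109). Within A549 alone the change of GBP2 did not pass the test (-0.54 ± 0.27, edgeR adjusted p = 0.117).

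HERC5 had few counts in PC9, with 3 to 17 per library, and was below the filter there, so it entered the test through A549. With no filter its PC9 change was 0.98 (edgeR adjusted p = 0.23). The call of the difference ended without PC9-HOXC6 replicate 1 (-1.78) or 3 (-1.90). That of GBP2 ended without A549-HOXC6 replicate 2 (-0.96). B2M (-0.60 ± 0.12, edgeR adjusted p = 0.000414) and SP100 (-0.99996 ± 0.27, edgeR adjusted p = 0.00745) passed the p threshold alone. For SP100 the A549 libraries went from 25.8, 27.0 and 29.1 CPM to 16.4, 11.9 and 16.5 CPM, and the PC9 libraries from 37.7, 29.1 and 36.8 CPM to 34.1, 49.1 and 37.4 CPM. B2M therefore differed between the lines in its response to the vector, although its level with the empty vector differed by only -0.06. DDX60, lower in both, had a difference of 0.42 ± 0.58 (edgeR adjusted p = 0.676).

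The fold changes moved with the base composition of the transcripts, in the whole table as in the module. Over 8712 genes in A549 and 8360 in PC9, Spearman's rho between GC content and the log2 fold change of HOXC6 over NEO was 0.530 and 0.527, and over the members tested it was 0.602 (23) and 0.487 (26), as a description of genes that share libraries. DDX60 has a GC content of 38.9%, EIF2AK2 38.5%, HERC5 44.1%, IFI6 56.2% and LGALS3BP 61.2%. In A549, genes around a GC content of 39.0% had a median log2 fold change of -0.52, and genes around 56.4% had one of 0.25. B2M, at 39.1%, rose in PC9 although genes of its composition had a median of -0.34.

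With the trend on GC content and on length removed from each library, none of the 3 A549 calls passed both thresholds: DDX60 was at -0.49 (edgeR adjusted p = 0.387), IFI6 at 0.75 (0.13) and HERC5 at -0.99 (0.0111). In PC9, DDX60 was at -0.96 (edgeR adjusted p = 0.0586). EIF2AK2 went to -0.15 in A549 and -0.09 in PC9, and LGALS3BP to 0.10 and -0.03, so the genes that passed the p threshold in both lines no longer passed it in either. In PC9, B2M went to 0.82 (edgeR adjusted p = 3.21e-09), BST2 to 0.27 and GBP2 to 0.81, all still past the p threshold, whereas TAP1 (0.19) and UBE2L6 (0.23) were not. IRF1 (-0.54) and TRIM25 (-0.40) stayed lower in A549, while IFI35 (0.44) and SP100 (-0.53) no longer passed. In A549, TAP1 (-0.26) and UBE2L6 (-0.29), as lower, and B2M, which turned from -0.12 to 0.22 (edgeR adjusted p = 0.0243), passed the p threshold with the correction only. The line differences of HERC5 (-1.97) and GBP2 (-1.03) were called with the correction too.

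**Figure D4:**
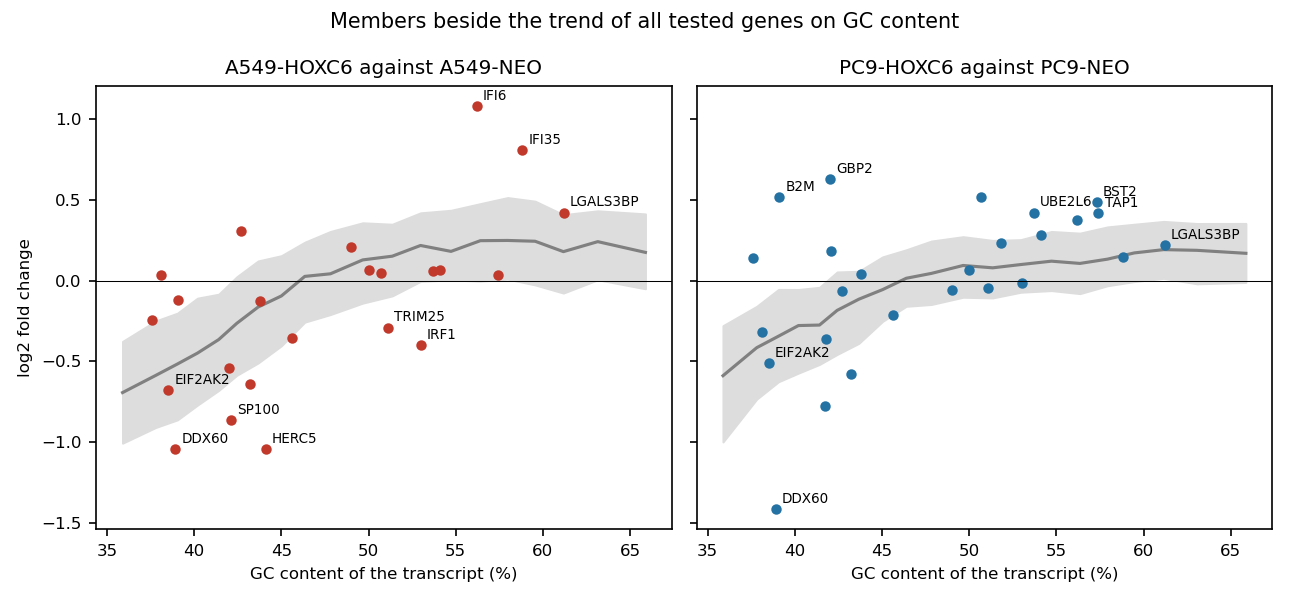
Log2 fold change of HOXC6 over NEO for each tested member against the GC content of its transcripts, with the median of all tested genes (line) and the range from the 25th to the 75th percentile (band) in 20 bins of GC content. DDX60 and EIF2AK2 lie on the low-GC side where the median of all genes is below 0, and DDX60 lies below the band in both lines. Of the other members past the p threshold, HERC5, SP100, IRF1 and TRIM25 lie below the band in A549. IFI6, IFI35 and, narrowly, LGALS3BP lie above it there. In PC9 B2M, GBP2, BST2, TAP1 and UBE2L6 lie above it.

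The machinery upstream of the module was described from lists of pathway genes. For comparison with each list, the shares of all genes called under HOXC6 were 1.7% higher and 5.51% lower in A549. In PC9 they were 0.962% and 3.56%, and the line difference was called for 5.15% of all genes. At an adjusted p under 0.05 and any fold change the shares were 18.9% and 20.7% in A549, and 13.3% and 14.2% in PC9. Of the interferon receptor and JAK-STAT genes, 10 were in the table. In A549-NEO against PC9-NEO 6 of 10 tested were called higher and 0 lower, against 19.6% and 16.4% of all genes, with a median of 1.14, among them JAK1 (1.19) and STAT3 (1.41). JAK2, also among those called, was below the filter within PC9, so its direction was largely set by the filter. Under HOXC6 in A549, 1 of 10 was higher and 5 lower at an adjusted p under 0.05 and any fold change. With the fold criterion, edgeR called 0 higher (1 at an unadjusted p under 0.05) and 2 lower. The latter were JAK2, a receptor kinase, which measured 11.9, 7.65 and 9.83 CPM and then 4.38, 2.55 and 5.86 CPM (-1.17 ± 0.38, edgeR adjusted p = 0.0145), and PIAS1, an inhibitor of STAT signalling, which measured 45.0, 41.5 and 40.5 CPM and then 23.7, 20.4 and 14.4 CPM (-1.13 ± 0.19, edgeR adjusted p = 4.05e-05). In PC9 edgeR called 0 of 9 tested, although 2 were higher and 2 lower at an unadjusted p under 0.05. At an adjusted p under 0.05 and any fold change, 2 were higher and 1 lower. With the GC and length correction PIAS1 stood at -0.71 in A549 (edgeR adjusted p = 0.00265), and JAK2 at -0.59 did not pass the test (0.263).

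Of the nucleic acid sensors and their adaptors, 15 were in the table. At an adjusted p under 0.05 and any fold change, 2 of 11 tested were higher and 2 lower under HOXC6 in A549. In PC9, 0 of 13 were higher and 2 lower by that rule. In A549 under HOXC6, edgeR called 0 of 11 tested higher (4 at an unadjusted p under 0.05) and 1 lower, RIGI (DDX58), the sensor of viral RNA ends, which measured 11.2, 12.5 and 10.6 CPM and then 5.11, 4.26 and 5.86 CPM (-1.17 ± 0.34, edgeR adjusted p = 0.00702). In PC9 edgeR called 0 of 13, although 1 was higher and 3 lower at an unadjusted p under 0.05, and RIGI was at -0.90 ± 0.30 (edgeR adjusted p = 0.0234). With the GC and length correction it stood at -0.73 in A549 and -0.56 in PC9, and passed in neither. The factor IRF3 and the adaptors MAVS and TRAF3 were the highest of the list by mean CPM, and of these IRF3 passed the p threshold in A549 (0.44). With the correction it did not (0.14, edgeR adjusted p = 0.281), and it was at -0.36 in PC9 (0.000609). In A549-NEO against PC9-NEO, 1 of 12 was called higher and 5 lower, against 19.6% and 16.4% of all genes. A gene among those called lower was below the filter within A549, so its direction was largely set by the filter.

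Among 28 other interferon-induced genes in the table, edgeR called 1 of 19 tested higher in A549 under HOXC6 and 0 lower (7 at an unadjusted p under 0.05). At an adjusted p under 0.05 and any fold change, 4 were higher and 4 lower. The gene called was IFITM3, a membrane protein that blocks virus entry, which measured 48.5, 45.5 and 46.8 CPM and then 106, 106 and 120.9 CPM (1.20 ± 0.12, edgeR adjusted p = 1.68e-08). In PC9 it measured 256, 272 and 273 CPM and then 271, 257 and 246 CPM (-0.05 ± 0.07), and the difference between the lines was 1.30 ± 0.14 (edgeR adjusted p = 6.32e-09). With the GC and length correction it stood at 0.86 in A549, still past the p threshold but below the fold threshold, and the line difference at 1.19 was still called. In PC9 edgeR called 0 of 19, although 5 were higher and 3 lower at an unadjusted p under 0.05. At an adjusted p under 0.05 and any fold change, 4 were higher and 3 lower. LY6E and HERC3, the highest of the list by mean CPM along with TRIM14, were at 0.27 and 0.56 in A549 and at 0.09 and -0.02 in PC9. HERC3 passed the p threshold in A549 (edgeR adjusted p = 1.55e-05), and its line difference was 0.63 (0.000173). With the correction LY6E was at -0.06 and -0.16, and HERC3 at 0.74 (edgeR adjusted p = 5.50e-10) and 0.10.

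Of the class I presentation genes outside the module, edgeR called 0 of 10 tested in A549 and 0 of 11 in PC9, with 4 and 6 at an unadjusted p under 0.05. At an adjusted p under 0.05 and any fold change, 1 was higher and 2 lower in A549, and 3 and 2 in PC9. The difference between the lines was called for 1 of 11, IRF2, a regulator of interferon-stimulated genes that was at 0.96 ± 0.17 in PC9 (edgeR adjusted p = 8.43e-05) and -0.36 ± 0.16 in A549 (0.0794). Its difference was -1.26 ± 0.24 (edgeR adjusted p = 0.000126), and it was still called at -1.24 with the GC and length correction. Of the class II genes edgeR called 0 of 3 in A549 and 0 of 2 in PC9, with 1 and 0 at an adjusted p under 0.05 and any fold change. The chaperone CANX, the peptidase ERAP1 and the disulfide isomerase PDIA3 were the highest of the class I list by mean CPM, and in A549 CANX was at -0.63 (edgeR adjusted p = 9.32e-06), ERAP1 at 0.01 and PDIA3 at 0.13. With the correction CANX no longer passed in A549 (-0.16, edgeR adjusted p = 0.059) and was at 0.25 in PC9 (0.00191). PDIA3 then passed the p threshold in A549 at 0.36 (0.000726) and in PC9 at 0.28 (0.00648). For class II the highest were the regulators RFXANK and RFX5 and the protease CTSS. The interferon ligand genes in the table, IFNK and IFNG, never exceeded 2 counts in a library and were not tested.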

How the data were processed

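Poly(A) RNA of stably infected A549 and PC9 cells was sequenced as 150 bp read pairs from directional libraries, 3 for each of the 4 groups. Per the labels and the study's methods, the authors aligned the reads to GRCh37.p13 with HISAT2 2.1.0 and counted them with HTSeq 0.9.1, and they deposited raw counts per gene, with no normalization or pooling. The annotation release and the strand setting of the counting are not given in the sources used here. The table analysed held 12584 genes, and 1 incomplete last entry was left out. Since it holds part of the genes, CPM is relative to those genes. Groups and replicate numbers came from the sample titles. The labels call the replicates independent but name no separate cultures, so p-values measure the spread between these libraries.

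Names, positions, exon lengths and GC content were taken from the GENCODE annotation of GRCh37, in which 12463 of the genes were found, and upstream windows from RefSeq (GRCh38.p14). Each comparison used the counts of its own libraries, filterByExpr, TMM scaling and the quasi-likelihood test of edgeR 4.0.16 in R 4.3.3 over all genes tested, with Benjamini-Hochberg adjustment. Calls required an adjusted p under 0.05 together with a log2 fold change larger than 1 in size. Each standard error is the log2 fold change divided by the root of its F statistic. TMM-scaled CPM over 12 libraries gave the levels. Counting intervals (95%, exact) and the floor of 3 counts cover counting error only. The line comparison used the same NEO libraries as the vector comparisons.

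Members were described library by library if called in any comparison or past the p threshold in both lines. B2M, TAP1, SP100 and CD274 were added after their values had been seen. Pathway genes were named if called under HOXC6, with up to 3 of the highest mean CPM in each list. A pathway gene is not reported here. The members and lists were chosen with earlier results of these data known. Alternatives were DESeq2 1.42.0, RLE factors, library size only, 2 other filters on low counts, other call rules, thinning, 1 fit of 12 libraries, the replicate block, a GC and length correction (mgcv 1.9.3) and leaving out single libraries. The fit without a fold criterion under that correction was chosen after seeing the data. On simulated counts in which 200 genes were shifted by 1.5 on the log2 scale, the tests recovered 99.5% in A549, 97.5% in PC9, 98.5% between the lines and 97% for the line difference. The shifted genes were drawn from those with an expected count above 10 in the smallest library, and no trend on GC content was simulated. These rates therefore do not cover members with fewer counts or smaller changes. Within groups, counts of library pairs differed by more than sampling noise (chi-square per degree of freedom 1.59 to 4.41), which does not show that they came from separate cultures.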

Additional observations from a re-analysis of the deposited data

Results flagged for a closer look

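Among the members, HERC5 and GBP2 had an effect of HOXC6 that differed between the lines by a test of the difference itself (edgeR's quasi-likelihood test, Benjamini-Hochberg). For HERC5 the difference of A549 minus PC9 was -1.98 on the log2 scale (adjusted p = 0.0147), with all 3 A549-HOXC6 libraries below all 3 A549-NEO libraries and the PC9 groups overlapping. It was below the filter on low counts within PC9, where it had 3 to 17 counts per library, and the call ended without PC9-HOXC6 replicate 1 (-1.78) or 3 (-1.90). For GBP2 it was -1.12 (edgeR adjusted p = 0.0109), with all 3 A549-HOXC6 libraries below the A549-NEO libraries and all 3 PC9-HOXC6 libraries above the PC9-NEO libraries. That call ended without A549-HOXC6 replicate 2 (-0.96). Within A549 alone the change of GBP2 did not pass the test (-0.54 ± 0.27, edgeR adjusted p = 0.117).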

How the results depend on the processing

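The counts of members called (higher and lower: 1 and 2 in A549, 0 and 1 in PC9, 3 and 8 between the lines, 0 and 2 for the line difference) moved by more than 1.5 times as follows. With DESeq2 they were 0 and 1 in A549. With the GC and length correction, alone or with the replicate block, they were 0 and 0 in A549 and 0 lower in PC9. At an adjusted p under 0.01 they were 0 and 1 in A549, and 0 lower for the line difference. With no fold criterion they were 3 and 6 in A549, 6 and 2 in PC9, 5 higher between the lines and 4 lower for the line difference, and with the correction added 5 lower in A549, 3 and 0 in PC9, 5 higher between the lines and 6 lower for the line difference. With at least 10 counts in every library, which leaves fewer members tested, they were 1 lower in A549, 0 lower in PC9, 1 and 3 between the lines and 1 lower for the line difference. Tested against a log2 fold change of 1 they were 0 and 0 in A549, 0 lower in PC9, 5 lower between the lines and 0 lower for the line difference. With no filter 2 were higher in A549 and 1 for the line difference, and CD274 was among them (1.97 and 3.35). Thinned to equal depth they were 0 and 0 in A549 and 1 and 0 for the line difference. Leaving out each library gave 0 to 1 higher and 0 to 1 lower in A549, 3 to 4 and 7 to 8 between the lines, and 0 to 1 and 1 to 3 for the line difference, and in PC9 0 higher and 1 lower each time. LGALS3BP in PC9 turned from 0.22 to -0.0333 with the correction and to -0.0324 with the correction and the block. Where no value above shows it, the cause was not tested.

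Replicate numbers did not pair the libraries: same-numbered libraries correlated by -0.05 to 0.04 in their deviations from the group means. The replicate block alone gave 1 and 2 in A549, 0 and 1 in PC9 and 3 lower for the line difference. Scaling by library size only shifted the median of all genes between the lines by -0.11. At this depth 13 members were below the filter in every comparison.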
